A study of Homo sapiens with 50 samples.

Results

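*PLK1*, *BORA*, *AURKA*, *TPX2*, *HMMR*, *FAM83D*, *AURKB*, *INCENP*, *BIRC5* and *CDCA8* encode the kinases PLK1, Aurora A and Aurora B and the proteins that switch them on, place them or hold them in complexes when a cell enters mitosis. These 10 genes were measured by 11 features of a whole-genome array, of 34127 features in all, on 50 arrays of human non-small cell lung carcinoma cells. The genes were chosen by name, with earlier results of these arrays in view. *BORA* and *FAM83D* were already known to be low in directly irradiated H1299 cells of the DBP group when the list was drawn up, so H1299 DBP against its control is described below and not tested. The H1299 control arrays entered that contrast, so other comparisons that use them are not free of the choice for *BORA* and *FAM83D*. All 11 features passed the filter on background, and 8 features of 7 genes also passed the filter on variation that defined the 12206 features tested. *TPX2*, *HMMR* and *BIRC5* did not pass the second filter, and their values come from a fit of all 20100 features above background.

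H1299 is a cell line with an inherent level of RAD9, and H1299shRAD9 was made from it with a retroviral vector (pSUPER.retro.puro) that expresses a short hairpin RNA against *RAD9*, followed by selection of stable clones in puromycin. RAD9 is a subunit of the 9-1-1 clamp, which helps to signal DNA damage to the checkpoint kinase ATR. Cells of both lines grew on concentric Mylar dishes, on which α particles reached the directly irradiated cells and not the bystander cells that shared the medium. Each line gave 5 groups of 5 samples, all taken 4 h after treatment: unirradiated controls (CTL, 0 Gy), bystander cells that did (BP) or did not (BN) show raised micronucleus formation, and the directly irradiated cells (1 Gy) of the dishes that matched them (DBP and DBN). The bystander groups were thus defined by an outcome in the bystander cells, while DBP and DBN differ by the response of their neighbours. The methods chose clones with low RAD9 protein. The study made a pair of independent clones and used them interchangeably, the labels do not say which clone gave a sample, and no line with an empty vector was among the samples.

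Mitotic entry rests on a relay of kinases. In G2 phase BORA binds PLK1 and allows Aurora A to phosphorylate the activation loop of PLK1. Active PLK1 then helps to switch on CDK1 with cyclin B. TPX2 activates Aurora A again at the spindle, where HMMR and FAM83D serve as adaptors for motors and kinases. Aurora B acts in the chromosomal passenger complex with INCENP, survivin (encoded by *BIRC5*) and borealin (encoded by *CDCA8*), which corrects faulty attachments of chromosomes and guides cytokinesis. Transcripts of these genes rise in G2 and mitosis and are low in G1, and promoters of many such genes carry a CHR element bound by the MuvB complex. In bulk RNA, fewer cells in G2 and mitosis and less RNA per cell cannot be told apart.

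Each value below is a level on a log2 scale, the background-corrected signal of a feature minus the median of all non-control features on its array, so that 0 is the median feature and a difference of -1 is a fall to 50% of the signal. The share of features well above background ran from 55.4% to 83.4% of an array, with a median of 63.5%, and the highest value belonged to replicate 1 of H1299 DBN. *KRT8*, *KRT18* and *VIM*, expected in this line, were well above background on all 50 arrays. Of 5 fibroblast markers, *LUM* was above background on 0 arrays, *COL3A1* on 1, *COL1A2* on 2, *COL1A1* on 8 and *DCN* on 44. Of the leukocyte markers, *PTPRC* and *CD14* were above it on all 50 arrays and *CD3E* on 38. Of the endothelial markers, *CDH5* was above it on all 50, *VWF* on 40 and *PECAM1* on 3. The part of other cell types in the results was not tested. *RAD9A* lay at 3.65 ± 0.19 in H1299shRAD9 CTL and 4.01 ± 0.13 in H1299 CTL (SD, n = 5 each), and the groups overlapped. Samples of 1 group are called independent by the methods, but the arrays lay on 13 slides, and counts or values with the slide as a block are given below.

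Of the 10 genes *PLK1* alone had 2 features, and both lie in its coding sequence. The brighter one spans an intron in the part that encodes the polo boxes (hg19 chr16:23700970-23701212, plus strand), and the dimmer one lies upstream in the part that encodes the activation loop, which Aurora A phosphorylates (chr16:23692251-23692310). The *AURKB* feature also spans an intron (chr17:8110655-8110917, minus strand). These 3 probes are shown because they read coding sequence of kinases of the axis and because the pair on *PLK1* did not give the same values in every group. Other features were 60 bases long and continuous on the genome, at chr13:73329356-73329415 for *BORA*, chr20:54945120-54945179 for *AURKA*, chr20:30388973-30389032 for *TPX2*, chr5:162918837-162918896 for *HMMR*, chr20:37581326-37581385 for *FAM83D*, chr11:61919742-61919801 for *INCENP*, chr17:76220720-76220779 for *BIRC5* and chr1:38175149-38175208 for *CDCA8*. The array files give no exon or UTR for them, and no annotation of that build was used here.
PLK1, brighter feature: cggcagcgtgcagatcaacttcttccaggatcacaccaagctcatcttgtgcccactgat
PLK1, dimmer feature: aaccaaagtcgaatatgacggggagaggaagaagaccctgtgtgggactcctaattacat
AURKB: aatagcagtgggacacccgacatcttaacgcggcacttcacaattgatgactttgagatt

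RefSeq promoters (GRCh38.p14, from 250 bases before to 50 after the transcription start) were at hand for 6 of the 10 genes and were searched for TTTGAA, the core of the CHR element, and for CCAAT, the NF-Y box, on both strands. The CHR core was found in 5 of these 6 genes and in 15.2% of all 35116 promoters of the same length. CCAAT was found in 6 of 6 genes and in 34.6% of all promoters. Both were present in 5 of 6, against 5.9% of all. In *PLK1* the CHR core began 29 bases before the start, in *HMMR* it was present as a tandem 28 and 22 bases before it, in *CDCA8* 23 and in *INCENP* 10. In *BORA* it began 177 bases before the start. Neither *AURKB* window, from start sites that lie close together, held it. In *HMMR* a CCAAT and an ATTGG shared bases, and in *CDCA8* the CHR core and an ATTGG did so. The stretches from 190 bases before to 20 after the start are printed to show where these letters lie in the 6 genes, of which *PLK1*, *BORA* and *CDCA8* were called below and *HMMR*, *INCENP* and *AURKB* were not. Capitals mark both motifs. A match is a run of letters and not a measured binding site.
PLK1, chr16:23678699-23678908, plus strand: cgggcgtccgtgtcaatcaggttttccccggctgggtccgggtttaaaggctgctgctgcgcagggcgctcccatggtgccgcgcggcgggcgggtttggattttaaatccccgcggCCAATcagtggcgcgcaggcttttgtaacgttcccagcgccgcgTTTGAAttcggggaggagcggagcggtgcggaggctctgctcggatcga
BORA, chr13:72727733-72727942, plus strand: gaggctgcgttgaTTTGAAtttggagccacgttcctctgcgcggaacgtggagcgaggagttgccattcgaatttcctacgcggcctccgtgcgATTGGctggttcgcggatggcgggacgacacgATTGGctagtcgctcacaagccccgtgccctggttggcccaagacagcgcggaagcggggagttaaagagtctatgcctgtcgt
HMMR, chr5:163460442-163460651, plus strand: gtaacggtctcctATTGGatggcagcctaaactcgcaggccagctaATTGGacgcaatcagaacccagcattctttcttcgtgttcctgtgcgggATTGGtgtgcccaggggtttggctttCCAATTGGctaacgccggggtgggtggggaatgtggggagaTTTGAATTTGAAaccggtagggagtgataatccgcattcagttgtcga
CDCA8, chr1:37692326-37692535, plus strand: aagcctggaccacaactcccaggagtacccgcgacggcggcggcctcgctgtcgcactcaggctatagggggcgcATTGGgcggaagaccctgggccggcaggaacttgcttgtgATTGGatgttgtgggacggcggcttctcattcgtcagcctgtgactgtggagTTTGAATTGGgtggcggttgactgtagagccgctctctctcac
INCENP, chr11:62123821-62124030, plus strand: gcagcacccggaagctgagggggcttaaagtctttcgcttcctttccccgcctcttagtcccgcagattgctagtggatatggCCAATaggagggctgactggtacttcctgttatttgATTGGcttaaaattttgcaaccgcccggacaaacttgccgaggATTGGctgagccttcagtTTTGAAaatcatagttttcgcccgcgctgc
AURKB, chr17:8210230-8210439, minus strand: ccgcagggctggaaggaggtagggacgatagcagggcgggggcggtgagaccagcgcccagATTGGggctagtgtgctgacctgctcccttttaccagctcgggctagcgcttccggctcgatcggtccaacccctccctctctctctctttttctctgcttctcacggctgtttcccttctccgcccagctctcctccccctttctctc

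**Figure D1:**
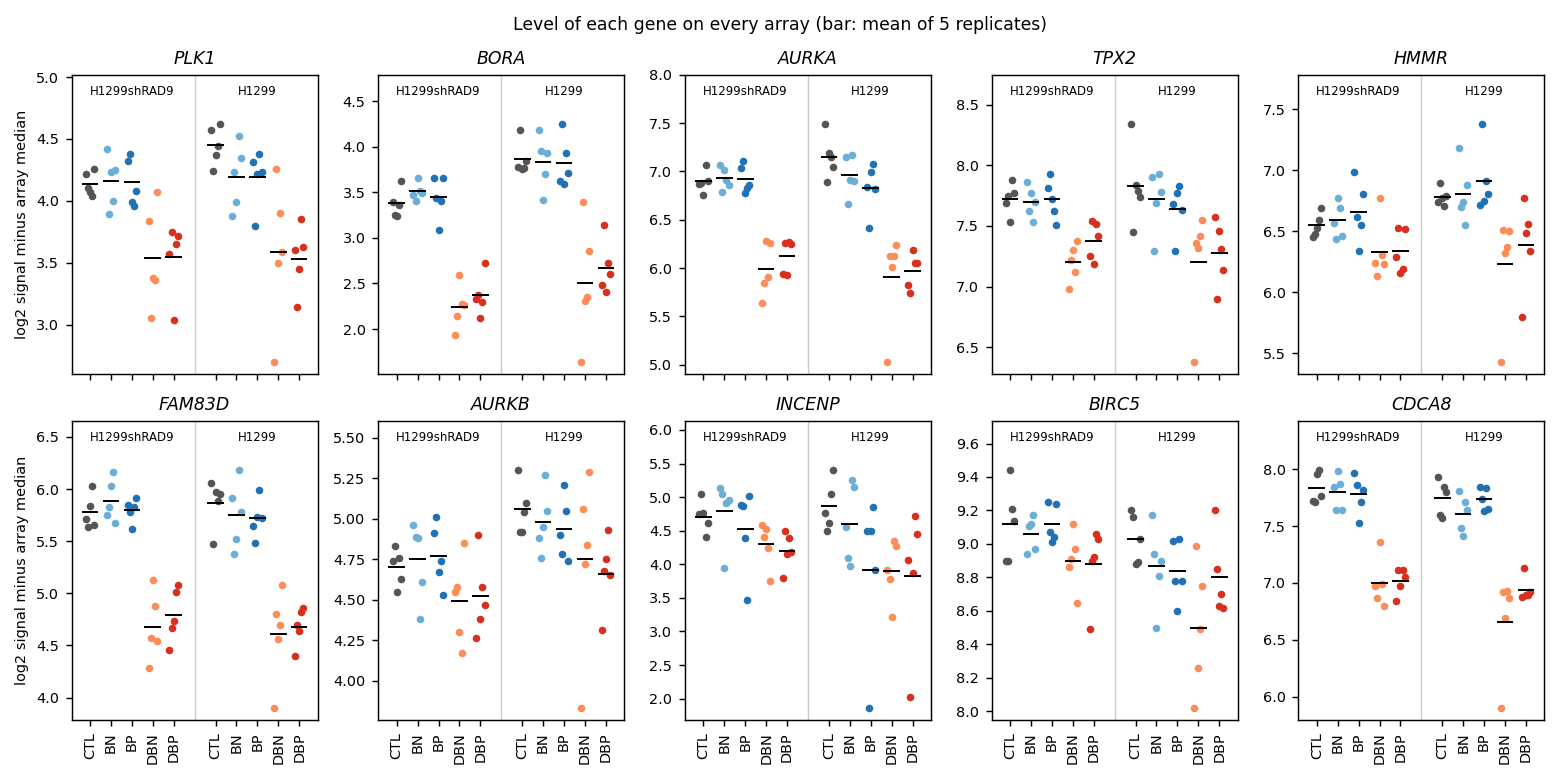
Level of each of the 10 genes (1 panel each, by its brighter feature) on every array, as log2 signal minus the array median. Points are the 5 replicates of each group and bars are their means, with H1299shRAD9 on the left and H1299 on the right. In *BORA*, *FAM83D*, *AURKA* and *CDCA8*, H1299shRAD9 DBP, H1299shRAD9 DBN and H1299 DBN lie wholly below CTL and below their matching bystander group. Of all features, 0.602% lay wholly below CTL in H1299shRAD9 DBP, 0.881% in H1299shRAD9 DBN and 0.721% in H1299 DBN. Wholly below the matching bystander group lay 0.353%, 0.338% and 0.358% of all features in the same order. Nothing is read from H1299 DBP, where *BORA* and *FAM83D* were known to be low when chosen.

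Did direct irradiation of RAD9-depleted cells change these transcripts? In H1299shRAD9 DBP all 10 genes lay below CTL, with a median difference of -0.55 on the log2 scale, while the median over all 20100 features was 0.03. *BORA* and *FAM83D* fell to 49.9% and 50.5% of the control signal, *CDCA8* to 57.0%, *AURKA* to 58.8% and *PLK1* to 66.2%. *TPX2*, *INCENP*, *BIRC5*, *HMMR* and *AURKB* had smaller differences, between -0.51 and -0.19, that were not called. Of the 8 features tested, 5 were called lower (limma, paired by replicate number, p under 0.006 and FDR under 10%), while 0.762% of the 12206 features tested were called lower. In 5 of the 10 genes all 5 DBP arrays lay below all 5 CTL arrays, a pattern found in 0.602% of the 20100 features. In DBN, the directly irradiated cells of dishes without a bystander response, the same 5 features were called lower, against a background of 1.36%, and the median of the 10 genes was -0.56. Of the 10 genes, 5 lay wholly below CTL in DBN, against 0.881% of features. DBP and DBN were compared with the same 5 controls.

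BORA is the cofactor that makes PLK1 a substrate of Aurora A. Its level in replicates 1 to 5 was 3.39, 3.25, 3.24, 3.36 and 3.63 in H1299shRAD9 CTL. In DBP it was 2.33, 2.37, 2.12, 2.30 and 2.73, and in DBN 1.93, 2.14, 2.59, 2.28 and 2.26. The highest irradiated array lay well below the lowest control. The difference from CTL was -1.0 ± 0.09 (SE, n = 5 pairs, adjusted p = 0.0285) in DBP and -1.13 ± 0.14 (adjusted p = 0.0253) in DBN, with all 5 pairs lower in both.

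PLK1 is the kinase that BORA serves. Its brighter feature read 4.22, 4.10, 4.07, 4.04 and 4.26 in CTL. It read 3.57, 3.75, 3.04, 3.65 and 3.72 in DBP. In DBN it read 3.84, 3.05, 3.38, 3.36 and 4.07. All DBP arrays were below the controls, while replicate 5 of DBN reached the control range. The difference was -0.59 ± 0.12 (adjusted p = 0.0944) in DBP and -0.60 ± 0.14 (adjusted p = 0.0763) in DBN. The dimmer feature differed by -0.49 ± 0.11 in DBP (adjusted p = 0.119) and by -0.21 ± 0.17 in DBN (adjusted p = 0.617), with 3 of 5 pairs lower in DBN, and was called in neither. The change of *PLK1* in DBN thus rests on 1 of its 2 features.

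Aurora A phosphorylates PLK1 and builds the spindle poles. *AURKA* read 6.87, 6.88, 6.76, 7.07 and 6.90 in CTL. In DBP it read 5.94, 6.26, 5.93, 6.27 and 6.25, and in DBN 5.64, 5.85, 6.28, 5.91 and 6.26. No irradiated array reached the lowest control, and the differences were -0.76 ± 0.10 (adjusted p = 0.0461) and -0.91 ± 0.14 (adjusted p = 0.0386). A pseudogene copy of *AURKA*, *AURKAPS1*, has a feature of its own on the array and differed by -0.79 in DBP and -0.82 in DBN, and how far the 2 features share RNA was not tested.

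FAM83D brings casein kinase 1 to the spindle and works with HMMR. *FAM83D* read 5.71, 5.64, 5.84, 6.03 and 5.66 in CTL. It read 4.46, 4.67, 4.73, 5.01 and 5.08 in DBP and 4.28, 4.57, 5.13, 4.88 and 4.54 in DBN. The highest irradiated array lay below the lowest control in both groups, and the differences were -0.99 ± 0.12 (adjusted p = 0.0461) and -1.10 ± 0.12 (adjusted p = 0.0252). Its partner *HMMR* differed by -0.21 ± 0.09 in DBP and -0.21 ± 0.12 in DBN, its groups overlapped, and it was not called (adjusted p = 0.368 and 0.476). *TPX2*, the activator of Aurora A at the spindle, read 7.69, 7.75, 7.53, 7.88 and 7.77 in CTL and 6.98, 7.22, 7.30, 7.12 and 7.38 in DBN. All its DBN arrays were below the controls, by -0.53 ± 0.10, and it passed the thresholds in the fit without the variation filter (adjusted p = 0.0706). In DBP the difference of *TPX2* was -0.34 ± 0.08 (adjusted p = 0.122).

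In the chromosomal passenger complex 1 of the 4 subunits, borealin, was called. Borealin targets the complex to centromeres, and *CDCA8* read 7.72, 7.71, 7.96, 7.99 and 7.76 in CTL, 6.84, 7.11, 6.97, 7.11 and 7.05 in DBP and 6.97, 6.87, 7.36, 6.99 and 6.80 in DBN. The irradiated arrays were all below the controls, and the differences were -0.81 ± 0.10 (adjusted p = 0.0461) and -0.83 ± 0.10 (adjusted p = 0.0253). *INCENP*, the scaffold that activates Aurora B, differed by -0.51 ± 0.14 (adjusted p = 0.144) and -0.41 ± 0.14 (adjusted p = 0.182), with 5 of 5 pairs lower in both. *AURKB*, the kinase, differed by -0.19 ± 0.11 (adjusted p = 0.465) and -0.22 ± 0.13 (adjusted p = 0.464). *BIRC5* differed by -0.24 ± 0.10 (adjusted p = 0.338) and -0.22 ± 0.10 (adjusted p = 0.39). The 95% intervals of *AURKB* reached from -0.43 to 0.06 in DBP and from -0.51 to 0.08 in DBN, so a fall as large as that of *CDCA8* lay outside them, while a small fall did not. Whether *CDCA8* fell more than *AURKB* was not tested.

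**Figure D2:**
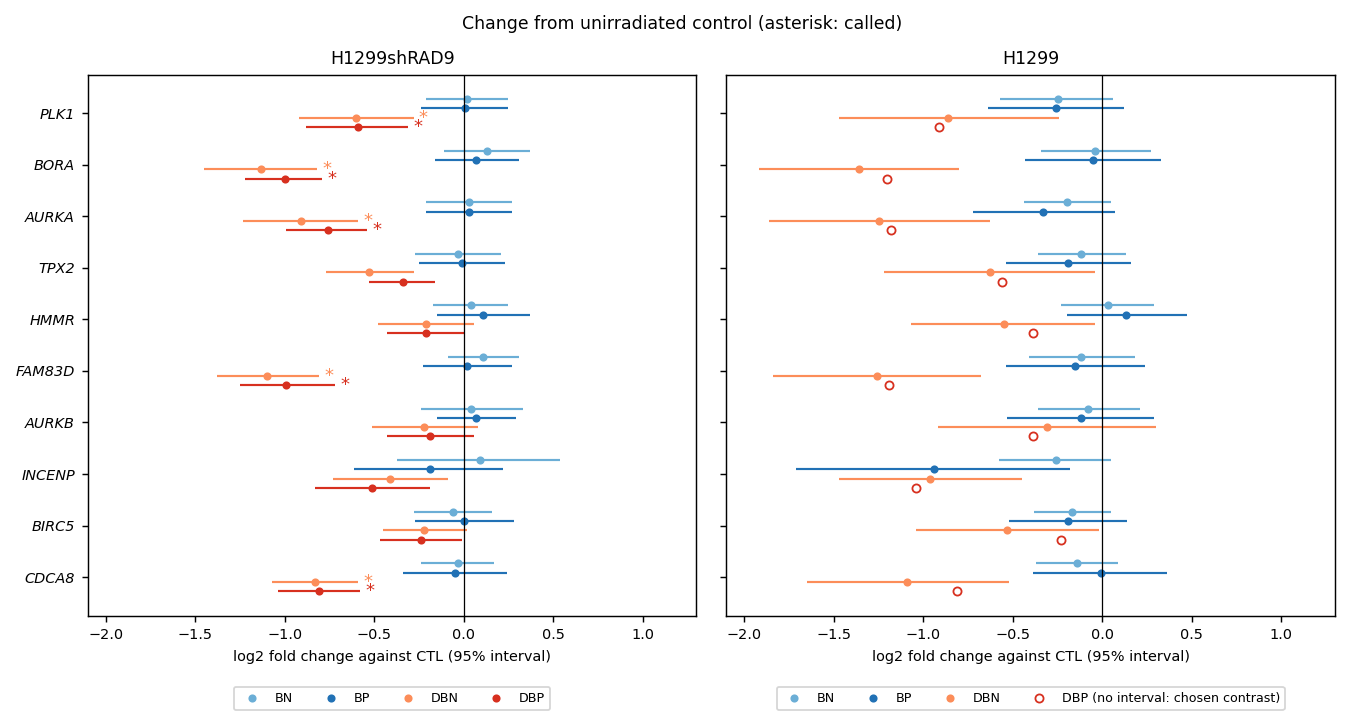
Log2 fold change of each gene against the unirradiated control of its line, with 95% intervals (n = 5 pairs) and an asterisk where a feature was called. Both directly irradiated groups of H1299shRAD9 sit to the left of 0 for *BORA*, *FAM83D*, *AURKA*, *CDCA8* and *PLK1*, and its bystander groups sit around 0. H1299 DBP is drawn without an interval because it was not tested.

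Leaving out pairs or blocking by slide removed calls. Without replicate 2 or without replicate 3, 0 member features were called in H1299shRAD9 DBP against CTL, and 0 of all features. Without replicate 4 the members gave 1 call and all features 7, and without replicate 5 the members gave 2 and all features 12 lower and 3 higher. The difference of *BORA* stayed between -1.04 and -0.94 over all alternatives run. In DBN 2 member features were called without replicate 4, where 10 of all features were called lower and 12 higher. Without replicate 2 the members gave 3 calls and all features 19 lower and 30 higher. With the slide as a fixed block in place of the replicate number 0 member features were called in either group. Of all features, 0 were then called lower and 1 higher in DBP, and 3 lower and 5 higher in DBN. *BORA* then differed by -0.95 ± 0.15 in DBP (adjusted p = 0.284) and by -1.39 ± 0.20 in DBN (adjusted p = 0.197). *PLK1* differed by -0.47 ± 0.15 in DBP (adjusted p = 0.563) and by -0.33 ± 0.16 in DBN (adjusted p = 0.372), where it had been -0.60 with the replicate block. Of the slides, 2 held both DBP and CTL arrays of this line, with within-slide differences of *BORA* of -1.0 and -0.89, and 1 held both DBN and CTL, with a difference of -1.39.

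Bystander cells of the same line gave another picture. In H1299shRAD9 BP, the bystander cells with raised micronucleus formation, 3 of the 10 genes lay below CTL and 7 above or at it, with a median of 0.02, and 0 of 8 features were called, while 2.33% of the features tested were called in either direction. In BN the median was 0.04, again with 0 of 8 called, against 0.0492% of all. At an unadjusted p under 0.05, 0 of the 8 passed in BP and 0 in BN, where 1534 and 1745 of the 12206 features did. With only 8 features, that 0 is not read as a result about these genes. *BORA* read 3.66, 3.44, 3.09, 3.40 and 3.66 in BP and 3.47, 3.40, 3.66, 3.52 and 3.49 in BN, which overlapped with CTL. Its difference was 0.07 with a 95% interval from -0.16 to 0.31 in BP, and 0.13 with an interval from -0.11 to 0.37 in BN. The interval of *FAM83D* in BP was from -0.23 to 0.27, that of *AURKA* from -0.21 to 0.27, and that of *CDCA8* from -0.34 to 0.24. The widest was that of *INCENP*, from -0.61 to 0.22, where replicate 4 of BP read 3.47 and the others 4.39 to 5.01.

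The direct test of irradiated against bystander cells used no control array. In H1299shRAD9 DBP against BP, 12 of 12206 features were called, all lower in the irradiated cells (0.0983%), and 3 of the 8 member features were among them. *BORA* differed by -1.08 ± 0.10 (adjusted p = 0.0245), *FAM83D* by -1.01 ± 0.12 (adjusted p = 0.0567) and *AURKA* by -0.79 ± 0.11 (adjusted p = 0.0966), with 5 of 5 pairs lower in each. *CDCA8* differed by -0.76 ± 0.11 and was just outside the threshold (adjusted p = 0.107), and both features of *PLK1* lay wholly below BP without a call. In DBN against BN 16 features were called, again all lower (0.131%), with 4 member features among them. *BORA* differed by -1.26 ± 0.12 (adjusted p = 0.0085), *FAM83D* by -1.21 ± 0.12 (adjusted p = 0.0126), *CDCA8* by -0.80 ± 0.11 (adjusted p = 0.0549) and *AURKA* by -0.94 ± 0.14 (adjusted p = 0.0615). In 5 of the 10 genes all DBP arrays lay below all BP arrays, against 0.353% of features, and in 5 all DBN arrays lay below all BN arrays, against 0.338%. *AURKB*, *BIRC5* and *HMMR* differed by values between -0.33 and -0.16 and were not called. The other called features shared by both comparisons were *AURKAPS1*, *CCNF*, *PSRC1*, *LAG3*, *HJURP*, *TROAP*, *PIF1* and 1 feature without a gene name, named after their values were seen. With the slide as a fixed block only *BORA* stayed called in DBP against BP (-1.02 ± 0.11, adjusted p = 0.0688), while *FAM83D* (-0.96 ± 0.13, adjusted p = 0.124) and *AURKA* (-0.78 ± 0.13, adjusted p = 0.275) did not. In DBN against BN *BORA* (-1.27 ± 0.14) and *FAM83D* (-1.23 ± 0.13) stayed called (adjusted p = 0.0203 for both), while *CDCA8* (adjusted p = 0.154) and *AURKA* (adjusted p = 0.108) did not. In DBP against BP 0 member features were called when any 1 replicate number was left out, where at most 1 of all features was, and in DBN against BN 1 to 3 were.

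**Figure D3:**
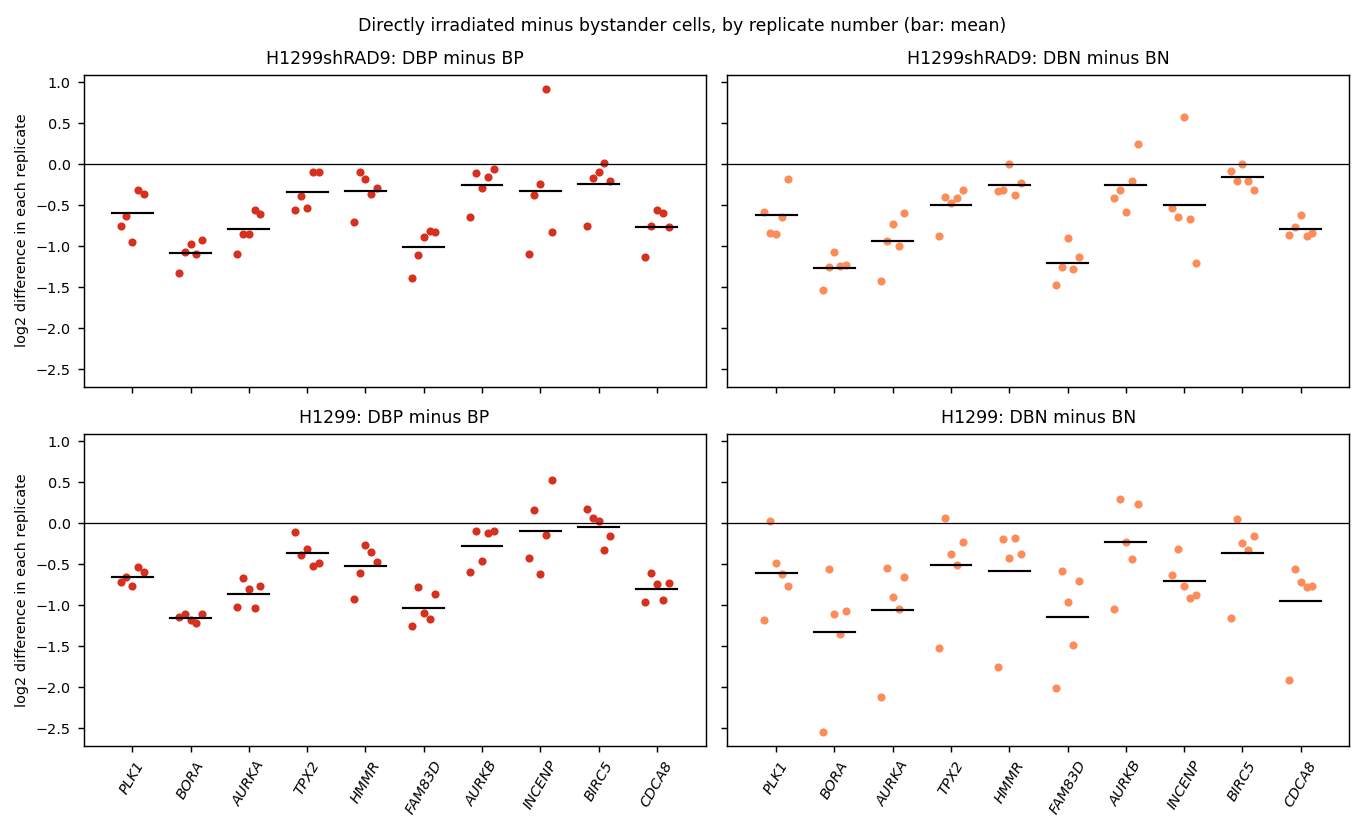
Log2 difference between directly irradiated and bystander cells with the same replicate number, for each gene in 4 comparisons. Points are the 5 differences and bars are their means. Outside H1299 DBP against BP, *BORA*, *FAM83D*, *AURKA* and *CDCA8* lie below 0 in all 5 pairs of each comparison. There *INCENP*, *AURKB*, *BIRC5*, *PLK1* and *TPX2* have pairs on both sides of 0 in some. The comparison of H1299 DBP with BP describes the choice of genes and nothing is read from it.

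In parental H1299 cells the same genes lay low after direct irradiation. In DBP, where the list was partly chosen, all 10 genes lay below CTL with a median difference of -0.86, and 5 lay wholly below it, beside 0.692% of all features, a count that the choice of genes partly fixed and from which nothing is read. *BORA* read 3.78, 4.19, 3.76, 3.77 and 3.85 in CTL and 2.48, 3.14, 2.41, 2.72 and 2.60 in DBP, a fall to 43.5%. *FAM83D* read 6.06, 5.47, 5.97, 5.89 and 5.95 in CTL and 4.40, 4.70, 4.64, 4.82 and 4.86 in DBP, 43.9% of control. *AURKA* differed by -1.18. As a share of control, *INCENP* was at 48.5%, *PLK1* at 53.1%, *CDCA8* at 57.0% and *TPX2* at 68.0%. *BIRC5*, at 85.2%, had the smallest difference. The dimmer *PLK1* feature was at 44.5%. *INCENP* in replicate 2 of DBP read 2.02, while the others were between 3.87 and 4.72.

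H1299 DBN against CTL was tested, with the same CTL arrays as the DBP contrast in which *BORA* and *FAM83D* were known to be low. The test and the counts below are thus not free of the choice of these genes. All 10 genes lay below CTL, with a median difference of -0.91, while 72.2% of all features lay below it and their median was -0.10. In 6 genes all DBN arrays lay below all CTL arrays, against 0.721% of features. In the paired fit 2 of 12206 features were called lower (0.0164%), and 0 of the 8 member features, though 7 of the 8 passed an unadjusted p under 0.05, as did 424 of all features. *BORA* read 1.64, 3.39, 2.31, 2.35 and 2.86 in DBN and differed by -1.36 ± 0.26 (adjusted p = 0.636). *FAM83D* differed by -1.26 ± 0.27 (adjusted p = 0.636), *AURKA* by -1.25 ± 0.28 (adjusted p = 0.645) and *CDCA8* by -1.09 ± 0.26 (adjusted p = 0.648). Their standard errors, 0.26 to 0.28, were above those of the same genes in H1299shRAD9 DBN, 0.10 to 0.14. Replicate 1 of DBN was the lowest array of its group for every gene but *INCENP*, with *PLK1* taken by its brighter feature. The dimmer *PLK1* feature read 1.09 on that array, the highest of its group, where the others were between -0.44 and 0.64. Replicate 1 was also the array with 83.4% of features above background, and its part in the result was not tested beyond leaving it out. Without replicate 1 *BORA* differed by -1.17, *FAM83D* by -1.04, *AURKA* by -0.94 and *CDCA8* by -0.85, and 0 members were called. When all 5 groups of the line shared 1 estimate of the spread, 5 member features were called, and 68 of all features were lower and 2 higher, with *BORA* at -1.36 ± 0.19 (adjusted p = 0.00148), *FAM83D* at -1.26 ± 0.18 (adjusted p = 0.00148), *AURKA* at -1.25 ± 0.19 (adjusted p = 0.00229), *CDCA8* at -1.09 ± 0.17 (adjusted p = 0.00238) and *PLK1* at -0.86 ± 0.21 (adjusted p = 0.0919). That fit also took in the H1299 DBP arrays, which were partly known when the genes were chosen.

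In H1299 bystander cells 9 of the 10 genes lay below CTL in BP and 9 in BN, without a call. Of all features, 62.5% lay below CTL in BP and 65.8% in BN. The median of the 10 genes was -0.17 in BP and -0.13 in BN, where the medians of all features were -0.06 and -0.05. No feature of the 12206 was called in either (0% each), and 711 and 340 passed an unadjusted p under 0.05. The difference of *BORA* was -0.05 with a 95% interval from -0.43 to 0.33 in BP and -0.04 with an interval from -0.34 to 0.27 in BN. *INCENP* differed by -0.94 ± 0.34 in BP (adjusted p = 0.779), where replicate 2 read 1.86 and the others 3.92 to 4.86. Directly irradiated against bystander H1299 cells gave 0 calls in DBP against BP and 0 in DBN against BN (0% each), with 740 and 411 features at an unadjusted p under 0.05. *BORA* and *FAM83D* differed by -1.15 and -1.03 in DBP against BP. In DBN against BN they differed by -1.33 ± 0.29 and -1.15 ± 0.26. The DBP arrays had been seen in part when the genes were chosen, so that these values of DBP against BP describe the choice. Nothing about these genes is read from the count of calls in that comparison. Of the 10 genes, 4 lay wholly below BP in DBP, beside 0.159% of features, from which nothing is read, and 5 wholly below BN in DBN, against 0.358%. With all groups of the line in 1 fit 4 member features were called in DBN against BN, where 26 of all features were. That fit also took in the H1299 DBP arrays.

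Did the unirradiated lines differ in these genes? H1299shRAD9 also carries the vector and was selected and cloned, so an effect of RAD9 depletion alone cannot be told apart. Between unirradiated H1299shRAD9 and H1299, 8 of the 10 genes were lower and the median was -0.19. Of all features, 43.3% were lower, with a median of 0.06. *BORA* was at 71.0% of the parental signal, with a difference of -0.49 ± 0.14 (adjusted p = 0.029). Its groups did not overlap, and 6.11% of the 20100 features lay wholly lower in this comparison. The H1299 CTL arrays were also the reference when *BORA* was known to be low in DBP, so this test is not free of the choice. The dimmer feature of *PLK1* differed by -0.52 ± 0.15 (adjusted p = 0.0308), while its brighter feature differed by -0.31 ± 0.13 (adjusted p = 0.102). Of the 8 member features 2 were called lower, and 7.68% of all features tested were called lower and 7.82% higher, so that a call was common in this comparison. *FAM83D* differed by -0.09 ± 0.15 and *CDCA8* by 0.08 ± 0.13 (adjusted p = 0.662 and 0.68), and the sign of *CDCA8* turned to -0.05 after quantile normalisation and to -0.10 after normexp. Both calls were lost under 75th percentile scaling, quantile normalisation, the slide as a random block and when any 1 replicate number was left out. The share of lower calls over all features was 49.6%, and 77.4% after normexp and 63.5% in the authors' processed values. No slide held controls of both lines, so slide and line cannot be told apart in full.

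The difference in response between the lines was tested for 3 of the 4 exposures, DBP being left out because of the choice of genes. The H1299 CTL arrays used here entered that choice as well. In DBN the difference from CTL was nearer 0 in H1299shRAD9 than in H1299 for all 10 genes by the main scaling. The median was 0.26 against 0.10 over all features, of which 32.1% had a value below 0. *AURKB* turned to -0.04 under 75th percentile scaling and to -0.03 after quantile normalisation. With the slide as a fixed block *BORA* turned to -0.30, and without replicate 1 *PLK1* turned to -0.05. No member feature was called, and 0 of all features were (0%). Without replicate 1, 18 features were called lower and 171 higher and the median of the tested features was -0.04, with 0 members among them. The difference was 0.23 for *BORA*, with a 95% interval from -0.38 to 0.83, 0.16 for *FAM83D* (-0.46 to 0.79) and 0.34 for *AURKA* (-0.36 to 1.03). *INCENP* had the largest, 0.55 ± 0.25, with an interval from 0.02 to 1.09 (adjusted p = 0.519). In BP and BN 0 features were called as well (0% each), and the numbers at an unadjusted p under 0.05 were 1107 in DBN, 853 in BP and 950 in BN. A p that misses the threshold does not show that the lines responded alike.

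The 10 genes did not move as a single block over the 50 arrays. Pearson's r between pairs ran from 0.00 to 0.95 with a median of 0.64 over 45 pairs. After the 10 group means were taken out, the median was 0.42. *AURKA* followed *FAM83D* (r = 0.95, and 0.75 without the group means), *CDCA8* (0.92 and 0.68) and *TPX2* (0.91 and 0.89). *BORA* followed *HMMR* within groups (0.79) more than it followed *AURKA* (0.35). *INCENP* had an r of 0.00 with *HMMR* and 0.19 with *BORA*. Points of 1 array share its scaling and its RNA, so these values are descriptions. The mean of the 10 genes ran from 6.04 to 6.13 in H1299shRAD9 CTL, from 5.32 to 5.65 in DBP and from 5.37 to 5.67 in DBN, against 5.91 to 6.27 in BP and 6.06 to 6.2 in BN. In H1299 it ran from 6.13 to 6.42 in CTL, from 5.31 to 5.66 in DBP and from 4.67 to 5.72 in DBN.

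The features outside the list that most resembled its mean over the 50 arrays were *FAM72D* (r = 0.919), *HJURP* (0.915), *CENPA* (0.904), *AURKAPS1* (0.894), *SGOL2* (0.891), *PSRC1* (0.887), *FAM72A* (0.875) and *CDCA2* (0.873). With the group means removed r was between 0.559 for *PSRC1* and 0.781 for *FAM72D*. HJURP loads the centromeric histone CENPA, and SGOL2 (shugoshin 2) protects cohesion at centromeres. *FAM72A* and *FAM72D* are near-identical copies whose features may share RNA. *CENPA* differed by -0.87 in H1299shRAD9 DBP and -1.0 in DBN against CTL, and *PSRC1* by -1.03 and -1.0. These features were picked because they followed a mean that is low in the directly irradiated groups. Their low values there follow from that choice and are no separate result.

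Of 93 other genes around the axis, 41 were tested, and 4 were called lower in H1299shRAD9 DBP and 6 lower and 1 higher in DBN, where 0.762%, 1.36% and 3.42% of all features were. Among 14 genes that Aurora B or PLK1 act on or with in mitosis, 13 lay below CTL in H1299shRAD9 DBP and 14 in DBN, with medians of -0.29 and -0.34. Of the 8 tested, 3 were called lower in DBP and 4 in DBN. They were the cytokinesis kinesins *KIF20A* (-0.61 ± 0.11 in DBP, -0.77 ± 0.16 in DBN) and *KIF23* (-0.51 ± 0.10 and -0.51 ± 0.11), *CENPA*, and in DBN *RACGAP1* (-0.49 ± 0.11), the partner of KIF23. In BP 4 of the 14 lay below CTL and 0 were called. *CENPA* was also called in DBN against BN (-1.11 ± 0.16, adjusted p = 0.0615). Of the 12 genes of the CDK1 switch, 7 were tested. *WEE1*, the kinase that holds CDK1 inactive, was called lower in DBP (-0.50 ± 0.10) and DBN (-0.49 ± 0.11), and *CDC25C*, the phosphatase that opposes it, was called lower in DBN (-0.46 ± 0.10), while the median of the list was -0.02 and -0.08. *WEE1* and *CDC25C* thus lay lower together although they act on CDK1 in opposite ways.

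Partners of Aurora A in spindle assembly gave 0 calls among 6 tested in either directly irradiated group, with medians of -0.12 and -0.18. Genes for the degradation of the axis had medians of -0.11 and -0.16, but 0 of the 10 passed the variation filter. Regulators of G2/M transcription had medians of 0.03 and -0.01, with 0 of 4 called. PLK and Aurora paralogs, of which 3 of 5 were above background, had medians of 0.13 and 0.01, with 0 of 2 called. Among brakes on mitotic entry after DNA damage, 11 of 12 were above background with medians of 0.22 and 0.13. *CLSPN*, the claspin that serves ATR signalling and is a target of PLK1, was called higher in DBN (0.69 ± 0.14, where 3.42% of features were) and in BP (0.55 ± 0.10). Of 18 S phase genes, 7 lay below CTL in DBP and 11 in DBN, with medians of 0.02 and -0.04, and 0 of 9 were called in either. In H1299 DBN all 18 lay below CTL, as did 72.2% of all features, with a median of -0.21 and 0 of 9 called. Replicate 1 of that group had the lowest S phase mean, 5.46, of all arrays. Between the unirradiated lines *TACC3* (-0.61 ± 0.16), *NUMA1* (-0.59 ± 0.15) and *CDKN1A* (-0.88 ± 0.17) were called lower in H1299shRAD9 and *CLTC* (0.62 ± 0.16) higher. Of the 41 tested, 3 were thus lower, near the 7.68% of all features. The 1 called higher was a smaller share than the 7.82% of all features. The lists were drawn up with results of these arrays known, and their medians stand beside the all-feature medians as descriptions.

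**Figure D4:**
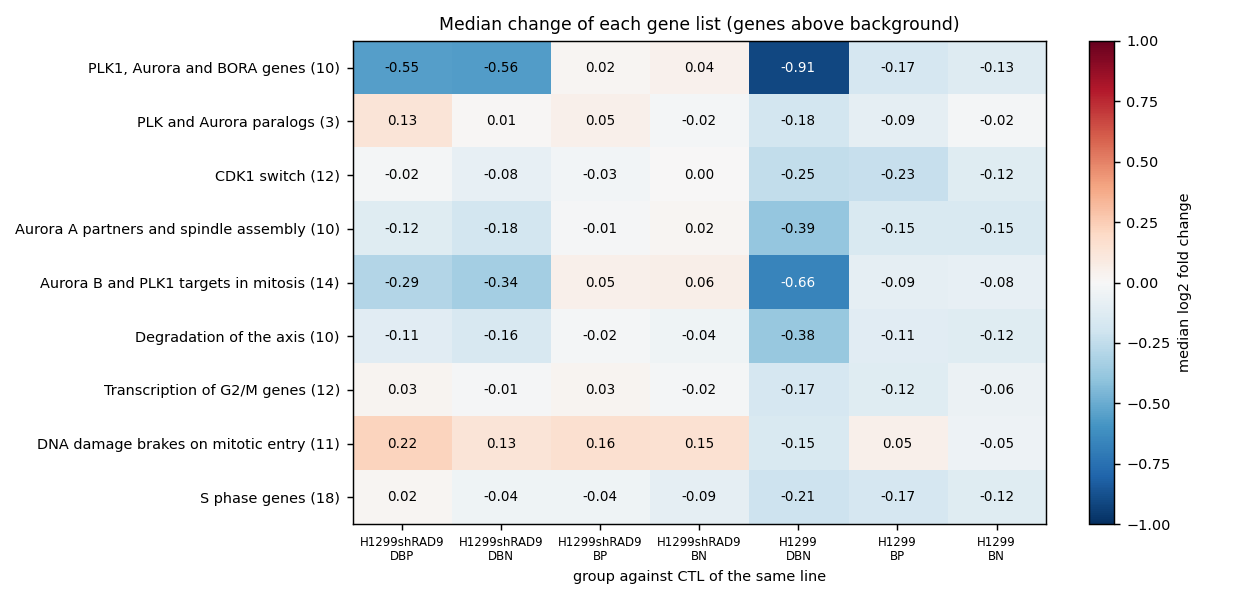
Median log2 fold change of each gene list against the control of its line, over the genes above background (their number is in parentheses), in the 7 comparisons that were tested. Blue is lower and red is higher. The 10 genes of the axis (first line) and the mitotic targets of Aurora B and PLK1 have medians of -0.55 and -0.29 in H1299shRAD9 DBP, where S phase genes have 0.02.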

How the data were processed

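RNA of 50 samples, 5 in each of 10 groups, was hybridised to single-colour Agilent arrays. The authors extracted intensity values with Feature Extraction 11.5.1.1, and the deposited processed signal is background-corrected and linear. The authors' processed table, median-normalised log2 values of 9476 features, served as an alternative. Here log2 of the processed signal was taken, outlier spots were dropped, spots of a probe were averaged and the array median of non-control probes was subtracted. A feature was kept when under 25% of arrays lacked a signal well above background (20100 features), and tested when at least 20% of arrays lay 1.3-fold or more from its median (12206 features). *PLK1* is given by its brighter feature unless stated. Differences were tested with limma 3.58.1 in R 4.3.3, with the replicate number as a block as in the authors' paired design, at p under 0.006 (cell lines, unpaired, 0.005) and a Benjamini-Hochberg FDR under 10%. Deviations of same-numbered samples correlated on average by 0.487 to 0.532 in the H1299shRAD9 comparisons with CTL, by 0.139 in H1299 BP, 0.234 in H1299 DBN and 0.414 in H1299 BN (lowest pairs -0.208, -0.0866 and 0.152), and by -0.013 between the controls. The fit was tested on simulated data. The members and lists were chosen with earlier results of these data known. Other genes named were the 8 features most correlated with the members' mean and listed genes that were called. Alternatives were other scalings, background corrections, filters, blocks, tests and the omission of each replicate. Results for some marker genes are not reported here.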

Additional observations from a re-analysis of the deposited data

Results flagged for a closer look

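In 14 of 110 sets of 5 replicates (11 features in 10 groups) 1 array stood apart from the others by Dixon's test, where chance flags about 1 in 20. In H1299 DBN, replicate 1 was low for *AURKA* (5.03, others 6.01 to 6.24), *TPX2* (6.38, others 7.32 to 7.55), *HMMR* (5.43, others 6.32 to 6.51) and *CDCA8* (5.90, others 6.69 to 6.93). In H1299 BP, replicate 2 was low for both features of *PLK1* (3.80, others 4.22 to 4.38, and -0.13, others 0.92 to 1.29) and high for *HMMR* (7.38, others 6.72 to 6.91). In H1299 CTL, replicate 2 was high for *BORA* (4.19, others 3.76 to 3.85) and low for *FAM83D* (5.47, others 5.89 to 6.06). *CDCA8* was high in replicate 2 of H1299 DBP (7.13, others 6.88 to 6.92). In H1299shRAD9, replicate 3 was low for *PLK1* in DBP (3.04, others 3.57 to 3.75), high for *HMMR* in DBN (6.77, others 6.13 to 6.31) and low for *INCENP* in BN (3.95, others 4.92 to 5.13). *BIRC5* was low in replicate 1 of H1299shRAD9 DBP (8.49, others 8.90 to 9.06).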

How the results depend on the processing

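No called member changed sign under any alternative run. With the positive-and-significant mark as the background filter, member features called numbered 0 in H1299shRAD9 DBP and 0 in DBN against CTL, 0 in DBP against BP, 1 in DBN against BN and 0 between the controls. Of all 16673 features then tested, 0, 0, 0 and 2 were called in the first 4 of these, and 1132 were lower and 980 higher between the controls. With the slide as a fixed block member features called numbered 0, 0, 1 and 2 in the first 4 of these, where 0, 3, 3 and 8 of all features were called lower. With the slide as a random block member features called numbered 5 in H1299shRAD9 DBP against BP, 4 in H1299 DBP against BP and 0 between the controls. Of all features, 20, 6 and 644 were then called lower. The H1299 DBP arrays were partly known when *BORA* and *FAM83D* were chosen, so nothing is read from counts on them. One fit of all groups of a line, which takes in the DBP arrays, gave 5 in H1299 DBN against CTL, 2 in H1299 DBP against BP and 4 in H1299 DBN against BN. Of all features, 68, 3 and 26 were then called lower. Between the controls, member calls were 0 with 75th percentile scaling, 0 with quantile normalisation, 4 with normexp, 0 with the replicate block and 1 in the authors' processed values. Of all features, 931, 961, 1382, 733 and 901 were called lower in the same order. Without any 1 replicate the member counts ran from 0 to 5 in H1299shRAD9 DBP and from 2 to 5 in DBN against CTL, from 0 to 0 in DBP against BP, from 1 to 3 in DBN against BN and from 0 to 0 between the controls. Lower calls over all features ran from 0 to 202, from 10 to 172, from 0 to 1, from 2 to 10 and from 529 to 975. Without the replicate block the member counts were 4, 4, 4 and 3 in the H1299shRAD9 comparisons in the same order, where 12, 24, 13 and 10 of all features were called lower. In H1299 DBP against CTL the median over the 7 tested genes was -1.04, and -1.30 with normexp. The causes were not tested. One fit could not be made for the lines or the interactions, nor a fixed slide block for the controls. All 11 features were well above background on all 50 arrays.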
